A study of Homo sapiens with 8 samples.

Results

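The BCL2 family sets the threshold at which a cell starts mitochondrial apoptosis. Antiapoptotic members (BCL2, BCL2L1, MCL1, BCL2A1) hold the effectors BAX and BAK1 in check, and once freed these effectors permeabilize the outer mitochondrial membrane. The BH3-only proteins (BCL2L11, also called BIM, and BBC3, also called PUMA, BID and BMF) relay death signals by binding the antiapoptotic members or the effectors, and in MYC-driven B cell lymphoma loss of these proapoptotic signals is a well known step. The transcripts of these 10 genes were followed here in the Ago2-RIP-Chip data of ST486 cells, a Burkitt lymphoma cell line. The members were all array probes, control spots left out, whose RefSeq accession belongs to one of the 10 genes, which gave 21 of the 41000 probes on the array. Of these, 14 probes of 9 genes were among the 15529 probes that passed the filters described next, and BMF was the gene with no such probe.

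Both cell populations were transduced with the retroviral vector MXW-PGK-IRES-GFP, and the paper states sorting of GFP-positive cells for its check of miR-155 overexpression. EV-ST486 carried this vector empty, and miR-155-ST486 carried it with miR-155, a miRNA that Burkitt lymphoma cells are known to express at a low level. From each population RNA was taken from the total cell lysate (T) and from an immunoprecipitate (IP) made with anti-Ago2 antibody. Ago2 binds miRNAs and, through them, mRNAs, so the arrays addressed which transcripts sat in Ago2 complexes and what ectopic miR-155 changed. All 4 RNA samples received both labels, Cy3 and Cy5, and 4 arrays paired the IP with the T of its own cells, once in either dye orientation. The labellings are technical repeats of 1 RNA sample per condition (n = 1), so no test was run, every comparison below is a comparison of these samples, and the labellings show technical error only. The arrays lay on 2 slides and 0 slides held both vectors, so slide and vector cannot be told apart, whereas IP and T of the same cells shared their arrays. As bulk lysates were used, fewer cells with a transcript and less transcript per cell cannot be told apart.

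Values are log2 signals after quantile normalization over the 8 channels. A probe was kept if it was well above background in at least 4 channels and its labellings differed by at most 2-fold in each sample. The IP/T ratio is the IP signal over the T signal, and miR-155/EV is that ratio in miR-155-ST486 divided by that in EV-ST486. Since every channel was given the same distribution, an IP/T ratio is relative to the other probes on the array and is no absolute share of a transcript in Ago2 complexes, and the level of a probe cannot be set against that of another probe. Between the dye orientations, the IP/T ratios of all kept probes had a log2 SD of 0.44 with the empty vector and 0.31 with miR-155. The channels had between 14094 and 22161 probes above background and 0 saturated spots. Of 8 B cell marker genes with a probe, 6 were kept, among them MS4A1, CD79A, CD79B, MME and CD38, CD22 was detected in 7 channels and the PAX5 probe in 0 channels. CD3D, CD3E, CD3G and CD2 were detected in 0 channels, as were LYZ, CSF1R, MPO and ITGAM, whereas CD8A was detected in 8 channels and CD14 in 5, and neither was kept. Of 4 epithelial and stromal genes with a probe, KRT8 had a kept probe.

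The sequences that matter for reading an Ago2-IP are those of the miRNAs. The ectopic miRNA is shown first, followed by miRNAs that are known from other work to pair with BCL2L11 (the miR-17 seed family), BCL2 (the miR-15 family) and MCL1 (the miR-29 family). They are RefSeq mature sequences (GRCh38.p14), written 5′ to 3′, with the seed (bases 2 to 8) in capitals.
hsa-miR-155-5p: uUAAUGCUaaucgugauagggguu
hsa-miR-17-5p: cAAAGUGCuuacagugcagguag
hsa-miR-20a-5p: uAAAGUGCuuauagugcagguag
hsa-miR-15a-5p: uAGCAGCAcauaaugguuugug
hsa-miR-16-5p: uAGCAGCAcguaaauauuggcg
hsa-miR-29a-3p: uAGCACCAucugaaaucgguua
hsa-miR-29b-3p: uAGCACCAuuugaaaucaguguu
Within each family the seeds are identical, and none of the other families shares the seed of miR-155. BCL2L11, BCL2 and MCL1 are the members with a kept probe enriched at least 2-fold in the IP in at least 1 vector. No miRNA is listed for the other members, and no target site was looked up for any member. The arrays measured mRNA and not these miRNAs, and the part of any of them in the values below was not tested.

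In both vectors the family split between transcripts enriched in the Ago2-IP and transcripts depleted from it. The enriched side held pro- and antiapoptotic members. One probe of the proapoptotic BCL2L11 and one of the antiapoptotic MCL1 were IP-enriched at least 2-fold in both vectors, joined by BCL2 in miR-155-ST486. BAX and 1 probe of BBC3 were at or below 0.5 in both vectors, joined by BCL2L1 in EV-ST486. BCL2L1 was the only antiapoptotic member at or below 0.5. Its Cy5 IP signal in EV-ST486 was near background, and with another background correction its EV-ST486 ratio was 0.714 or 0.843. In EV-ST486, 2 of the 14 kept probes reached an IP/T ratio of 2, against 12.1% of all kept probes, and 3 of 14 had a ratio of at most 0.5, against 10%. In miR-155-ST486, 3 of 14 had a ratio of at least 2, against 12.2% of all kept probes, and 2 of 14 had a ratio of at most 0.5, against 9.83%. With counts this small the members' shares cannot be separated from the background. The median log2 IP/T ratio of the 14 probes was -0.01 with the empty vector and -0.06 with miR-155, beside -0.15 and -0.18 for all kept probes. By the role of the gene, the median log2 IP/T ratio in EV-ST486 was 0.72 over the 5 antiapoptotic probes, -0.91 over the 2 effector probes and -0.12 over the 7 BH3-only probes. The first is the value of 1 MCL1 probe, and the second lies midway between BAX at -1.71 and BAK1 at -0.10. With so few probes these medians do not set the roles apart.

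**Figure D1:**
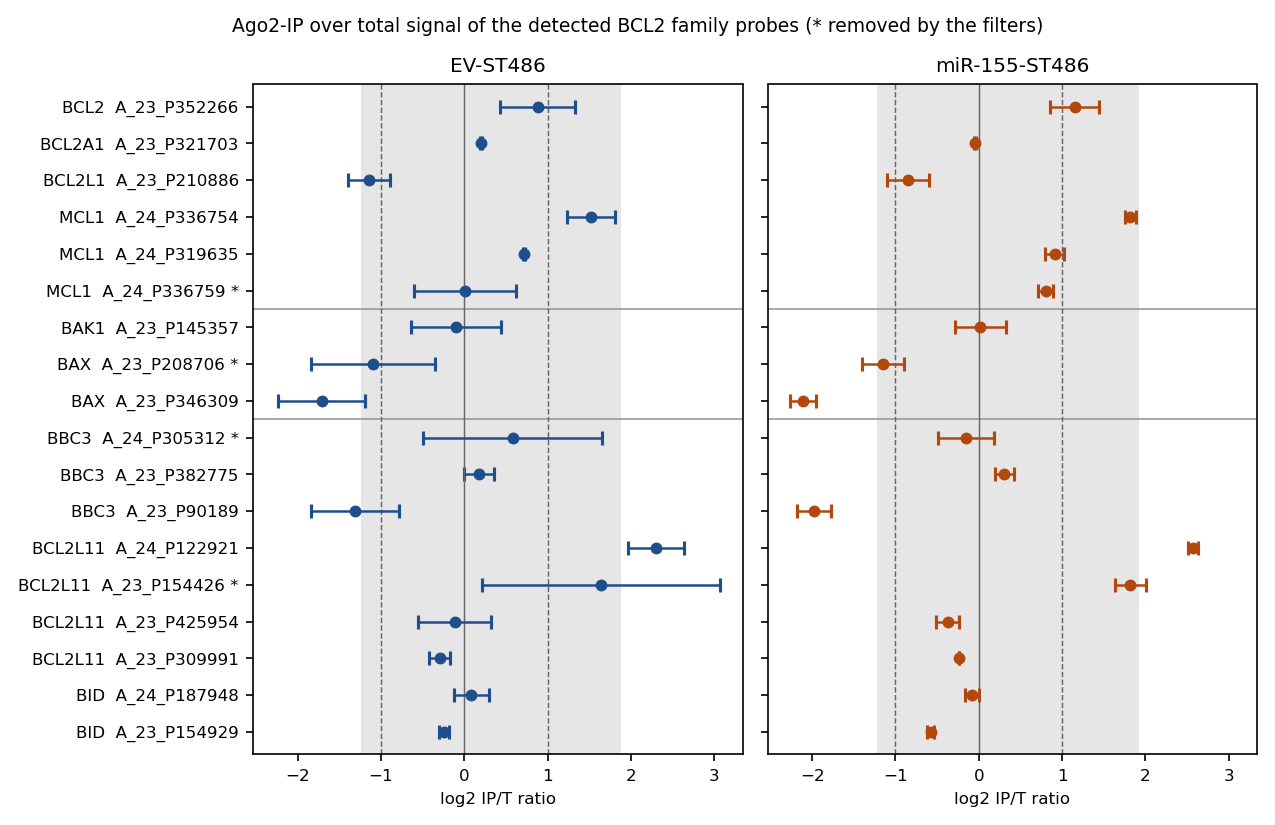
Log2 IP/T ratio (x axis) of the 18 BCL2 family probes detected in at least 4 channels (rows), in EV-ST486 (left) and miR-155-ST486 (right). Points are the means of the labellings, bars end at the values of the dye orientations, the grey band holds the 5th to the 95th percentile of all kept probes and dashed lines mark 2-fold. In both panels 1 BCL2L11 probe lies right of the band at 2.30 and 2.57. BAX probe A_23_P346309, at -1.71 and -2.11, and BBC3 probe A_23_P90189, at -1.32 and -1.98, lie left of it. The other kept BCL2L11 and BBC3 probes lie near 0.

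Among the antiapoptotic genes, MCL1, whose short-lived protein neutralizes BCL2L11 and BAK1, was higher in the IP than in T at both of its kept probes, but past 2-fold at only 1. Probe A_24_P336754 had log2 T signals of 14.46 (Cy3) and 14.47 (Cy5) with the empty vector and 14.55 and 14.64 with miR-155. Its log2 IP signals were 16.27 (Cy3) and 15.69 (Cy5) with the empty vector and 16.52 and 16.31 with miR-155. All 4 IP labellings thus lay above all 4 T labellings. The IP/T ratio was 2.86 with the empty vector (2.34 and 3.49 in the dye orientations) and 3.53 with miR-155 (3.38 and 3.69). The other kept probe, A_24_P319635, had IP/T ratios of 1.65 and 1.88, also with every IP labelling above every T labelling. A further MCL1 probe, A_24_P336759, was detected in all 8 channels but removed because its EV-ST486 IP labellings lay apart, at log2 signals of 11.12 (Cy3) and 9.88 (Cy5). Its IP/T ratio was 1.74 in miR-155-ST486 (1.63 and 1.86), and in EV-ST486 the orientations fell on opposite sides of 1 (0.659 and 1.53). With normexp, another background correction, A_24_P319635 was at 1.26 and 1.40 (loess and Aquantile) or 1.29 in both vectors (quantile normalization). In those settings A_24_P336759 was kept, with EV-ST486 ratios of 1.02 and 0.931, while A_24_P336754 stayed above 2.

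BCL2, the founding member, was measured by 10 spots of 1 probe on each array, and the log2 SD over these spots was between 0.05 and 0.24 per channel. The log2 T signals were 9.87 (Cy3) and 10.30 (Cy5) with the empty vector and 9.73 and 10.21 with miR-155. The log2 IP signals were 10.73 (Cy3) and 11.20 (Cy5) with the empty vector and 11.07 and 11.18 with miR-155. The IP was above T in every labelling, by 1.84-fold in EV-ST486 (2.51 and 1.35 in the orientations) and by 2.22-fold in miR-155-ST486 (2.72 and 1.82), so that only the second mean passed 2-fold while the ranges of the orientations overlapped. With normexp and quantile normalization the miR-155-ST486 ratio was 1.85, and without quantile normalization the probe was removed, its T labellings in miR-155-ST486 being 2.05-fold apart.

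BCL2L1, which encodes BCL-XL, was lower in the IP. Probe A_23_P210886, also with 10 spots, had log2 T signals of 8.06 (Cy3) and 7.75 (Cy5) with the empty vector and 7.70 and 7.28 with miR-155. Its log2 IP signals were 6.86 and 6.66 with the empty vector and 6.68 and 6.59 with miR-155. Its IP/T ratios were 0.451 (0.378 and 0.537) with the empty vector and 0.555 (0.466 and 0.660) with miR-155, so IP labellings lay below T labellings throughout. In the Cy5 labellings of the IP, 0 of 10 spots were above background for EV-ST486 and 1 of 10 for miR-155-ST486. With another background correction, normexp, the EV-ST486 ratio was 0.714 (with quantile normalization) or 0.843 (with loess and Aquantile) and no longer below 0.5. The other BCL2L1 probe, A_24_P100130, was detected in 0 channels.

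BCL2A1, an NF-kB target in B cells, had 1 probe detected in 8 channels and 1 in 0 channels. The log2 signals of the detected probe, A_23_P321703, lay between 12.74 and 13.23 in all 8 channels. In EV-ST486 both IP labellings (13.23 and 13.11) lay above both T labellings (12.91 and 13.02), whereas in miR-155-ST486 the IP (12.76 and 12.74) lay just below T (12.80 and 12.79). The IP/T ratios were 1.15 and 0.972.

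**Figure D2:**
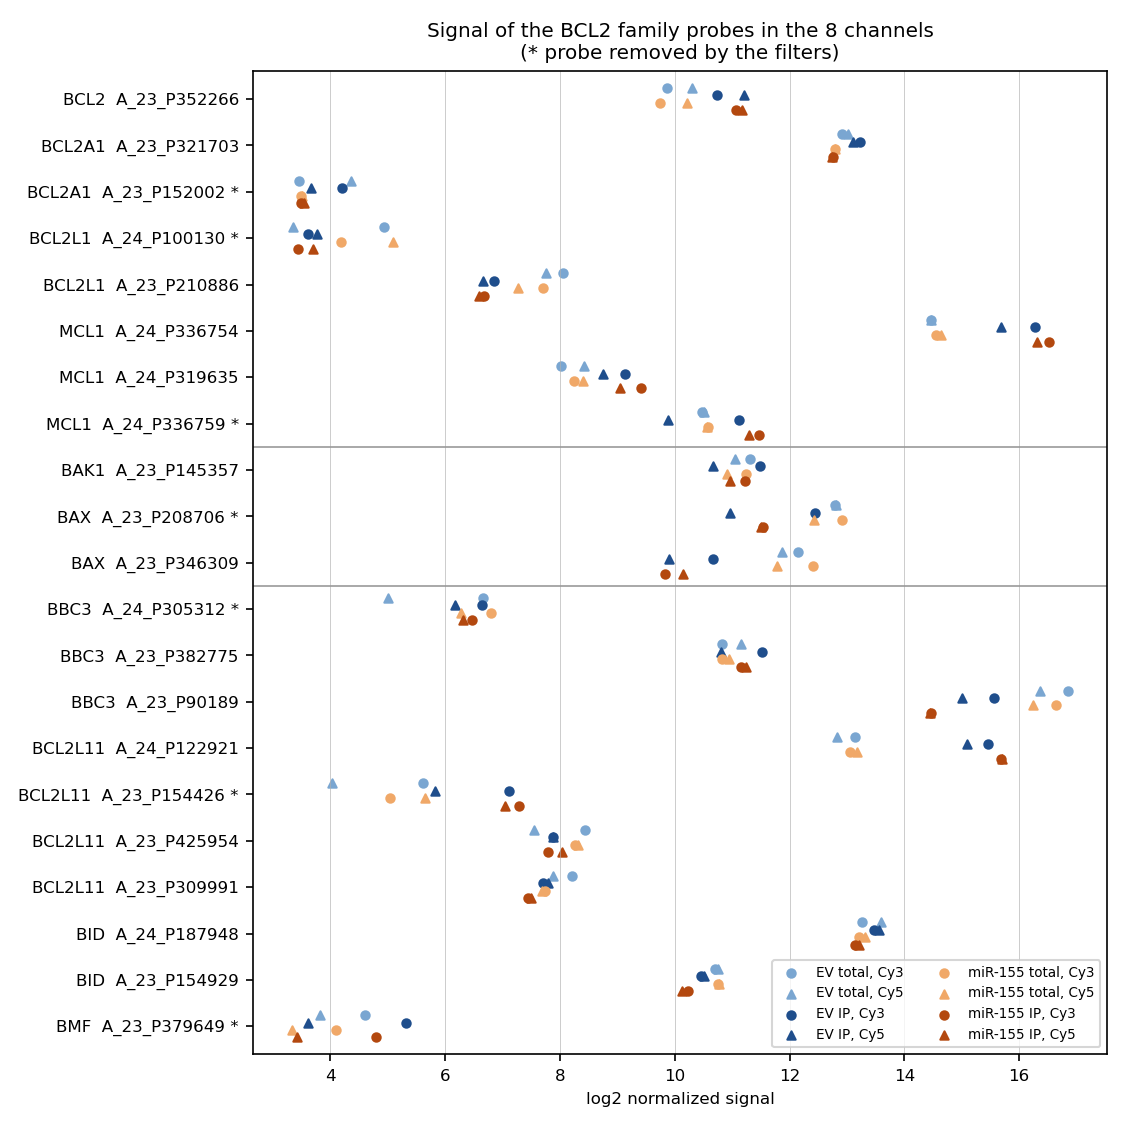
Log2 normalized signal (x axis) of all 21 BCL2 family probes (rows, grouped from the top as antiapoptotic, effector and BH3-only) in the 8 channels. Circles are Cy3 and triangles Cy5 labellings, blue is EV-ST486 and orange miR-155-ST486, with T in the lighter and IP in the darker shade. For MCL1 probes A_24_P336754 and A_24_P319635 and BCL2L11 probe A_24_P122921 the dark symbols stand to the right of all light ones, for BAX probe A_23_P346309 and BBC3 probe A_23_P90189 to the left, and the 3 probes detected in 0 channels lie at the low end.

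The effectors differed from each other. BAX was depleted from the IP, and only 0.786% of the kept probes had a lower IP/T ratio than probe A_23_P346309 with the empty vector, and 0.258% with miR-155. Its log2 T signals were 12.14 (Cy3) and 11.86 (Cy5) with the empty vector and 12.40 and 11.78 with miR-155. The log2 IP signals were 10.67 (Cy3) and 9.91 (Cy5) with the empty vector and 9.82 and 10.14 with miR-155. Every IP labelling lay below every T labelling, with IP/T ratios of 0.305 (0.212 and 0.438) and 0.231 (0.208 and 0.258). The other BAX probe, A_23_P208706 with 10 spots, showed the same direction at 0.468 (0.280 and 0.782) and 0.451 (0.379 and 0.538). That probe was removed by the filter, as its EV-ST486 IP signal was 12.45 in Cy3 and 10.96 in Cy5, although its spots within a channel had a log2 SD of at most 0.19.

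BAK1, the effector that resides on the mitochondrial membrane, was close to 1. Its log2 signals lay between 10.67 and 11.49 in all 8 channels with T and IP overlapping. The IP/T ratio was 0.933 with the empty vector and 1.01 with miR-155, and in each vector the orientations fell on opposite sides of 1 (0.641 and 1.36, 0.817 and 1.25).

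The BH3-only genes held the most enriched member and one of the most depleted. BCL2L11 probe A_24_P122921 had the highest IP/T ratio of the family. Its log2 T signals were 13.13 (Cy3) and 12.82 (Cy5) with the empty vector and 13.06 and 13.17 with miR-155. Its log2 IP signals were 15.46 and 15.10 with the empty vector and 15.68 and 15.70 with miR-155. The IP labellings lay well above the T labellings in both vectors, with IP/T ratios of 4.92 (3.91 and 6.20) and 5.95 (6.22 and 5.68), and 96.9% and 97.6% of all kept probes had a lower ratio. With the normexp correction the probe kept its ratio (4.36 and 5.63 with loess and Aquantile, 4.11 and 5.61 with quantile normalization) but not its place among the kept probes, as its EV-ST486 IP labellings were then 2.43-fold and 2.29-fold apart.

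Other BCL2L11 probes read differently. A_23_P309991 had IP/T ratios of 0.813 with the empty vector and 0.848 with miR-155, and A_23_P425954 had 0.923 and 0.773. These probes were nearer background, detected in 6 and 7 channels, and each in only 1 T labelling of EV-ST486. A further probe, A_23_P154426, was detected in 5 channels and removed, with ratios of 3.13 and 3.54. Its EV-ST486 orientations were 1.16 and 8.42, and its ratios shrank to 1.08 and 1.32 with normexp, loess and Aquantile. The highest and the lowest ratio among the 3 kept BCL2L11 probes were 6.06-fold apart in EV-ST486 and 7.69-fold in miR-155-ST486, further than for 98.9% and 99.4% of the 2150 genes with more than 1 kept probe. Over these genes the median distance was 1.40-fold and 1.32-fold. The part of near-background signal in the distance between the BCL2L11 probes was not tested. The arrays give no position of a probe within its transcripts that was used here, so which BCL2L11 transcripts each probe reads was not determined.

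BBC3 showed the same kind of split. Probe A_23_P90189 had log2 T signals of 16.86 (Cy3) and 16.36 (Cy5) with the empty vector and 16.64 and 16.24 with miR-155. The log2 IP signals were 15.57 and 15.01 with the empty vector and 14.47 and 14.45 with miR-155, all below T. Its IP/T ratios were 0.401 (0.278 and 0.579) and 0.254 (0.220 and 0.293). Probe A_23_P382775 of the same gene had ratios of 1.13 and 1.24, so that the kept BBC3 probes lay 2.81-fold apart in EV-ST486 and 4.88-fold in miR-155-ST486, further than for 91.8% and 98.3% of genes. A further probe, A_24_P305312, was detected in 5 channels and removed, with orientations on opposite sides of 1 in both vectors.

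BID, which is cleaved by caspase-8 and so links death receptors to mitochondria, was close to 1. Probe A_24_P187948 had IP/T ratios of 1.06 with the empty vector and 0.944 with miR-155. Probe A_23_P154929 had 0.846 and 0.671, with both orientations below 1 in each vector. The only BMF probe was detected in 0 channels, and no ratio is given for it.

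Between the vectors, no kept member differed by 2-fold in its IP/T ratio. The miR-155/EV ratios of the 14 probes ran from 0.633 (BBC3 probe A_23_P90189) to 1.24 (MCL1 probe A_24_P336754), with 0 probes at or above 2, against 1.15% of all kept probes, and 0 at or below 0.5, against 0.477%. The median log2 miR-155/EV ratio was 0.09, beside -0.02 for all kept probes. In the T fraction, 0 members differed by 2-fold between the vectors, against 0.676% of all kept probes that were at least 2-fold higher and 0.380% at least 2-fold lower in miR-155-ST486. In the IP fraction, 0 members differed by 2-fold, against 1.28% higher and 1.05% lower. With shares this small over all kept probes, counts of 0 among 14 probes cannot be separated from the background.

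Of the 5 antiapoptotic probes, 4 had a miR-155/EV ratio above 1 in both orientations, those of BCL2 and BCL2L1 and both kept MCL1 probes. The remaining one, of BCL2A1, was below 1 in both (0.842 and 0.846). Of the 7 BH3-only probes 0 were above 1 in both, and 3, of BBC3 and both of BID, were below 1 in both. Of the 2 effector probes, that of BAX was below 1 in both. Among all kept probes 26.7% were above 1 in both orientations and 32.7% below. With so few probes, some of the same gene, these counts by role cannot be separated from the background. The sizes were small, from 1.14 to 1.24 for the 4 antiapoptotic probes. For MCL1 probe A_24_P336754 the ratio was 1.24 (1.44 and 1.06), with the T signal at 1.09-fold and the IP signal at 1.35-fold of EV-ST486. MCL1 probe A_24_P319635 was at 1.14 (1.05 and 1.25), but at 1.004 with normexp and quantile normalization. For BCL2 it was 1.21 (1.08 and 1.35). For BCL2L1, 1.23 in both orientations, the T signal was 0.748-fold of EV-ST486 and the IP signal, near background in Cy5, 0.920-fold, and with normexp, loess and Aquantile its ratio was 1.03.

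The lowest miR-155/EV ratio, that of BBC3 probe A_23_P90189, was 0.633 (0.792 and 0.506). Its T signal was 0.889-fold and its IP signal 0.562-fold of EV-ST486, so the IP signal fell by more than the ratio did. Of all kept probes, 3.10% had a lower ratio. The other kept BBC3 probe had a ratio of 1.1, with its orientations on opposite sides of 1 (1.35 and 0.895). BCL2L11 probe A_24_P122921 was at 1.21, again with orientations on opposite sides of 1 (1.59 and 0.916). BAX probe A_23_P346309 was at 0.759 (0.980 and 0.589), BID probe A_23_P154929 at 0.793 (0.739 and 0.852) and BID probe A_24_P187948 at 0.889 (0.811 and 0.976).

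**Figure D3:**
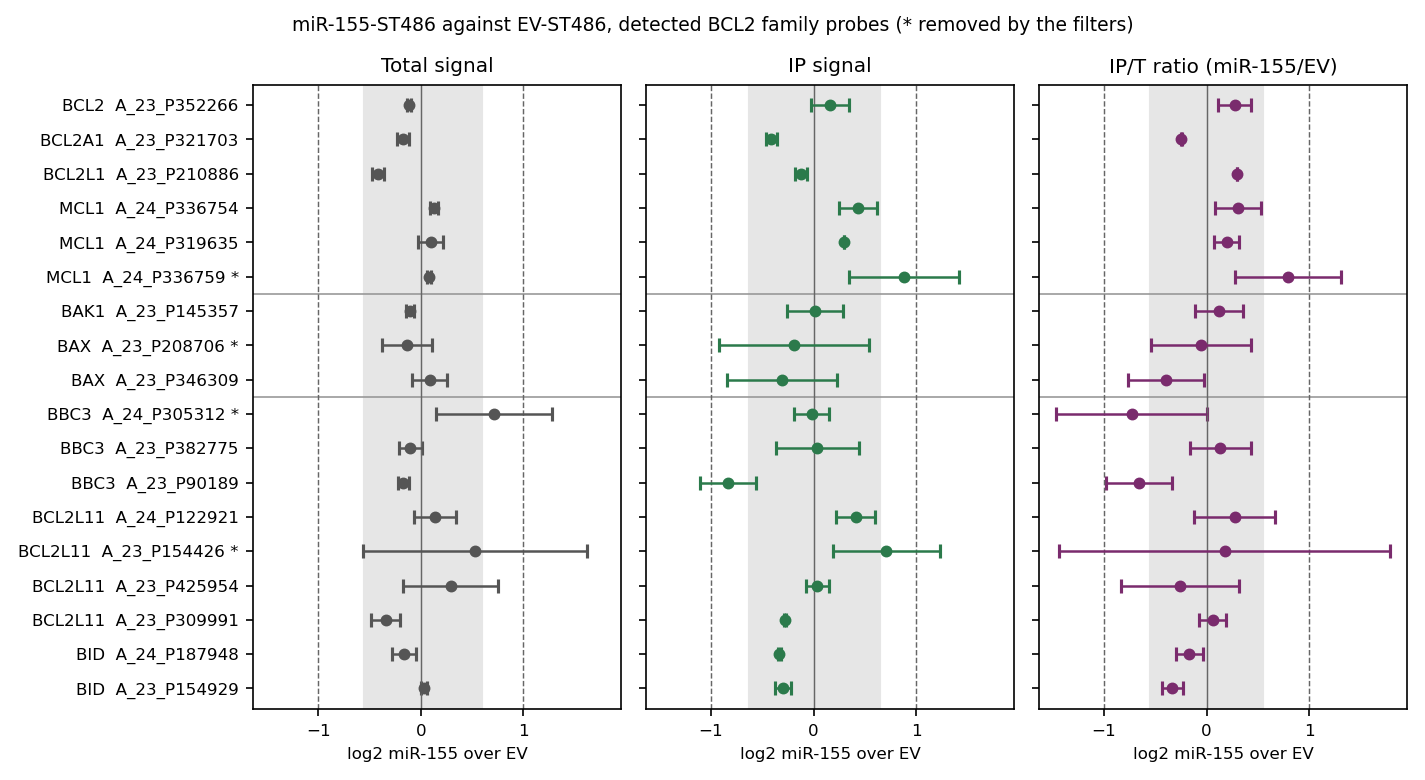
Log2 of miR-155-ST486 over EV-ST486 (x axis) for the T signal (left), the IP signal (middle) and the IP/T ratio (right) of the 18 BCL2 family probes detected in at least 4 channels. Points are the means of the labellings, bars end at the dye orientations, the grey band is the 5th to 95th percentile of all kept probes and dashed lines mark 2-fold. All kept probes lie within 2-fold, and BBC3 probe A_23_P90189, at -0.66 in the right panel, is the one kept member left of the band.

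Of 10 further family genes, 6 had kept probes, 7 in all, and 0 of these had a miR-155/EV ratio past 2-fold. In EV-ST486, 1 of the 7 had an IP/T ratio at or above 2, against 12.1% of all kept probes, and 1 at or below 0.5, against 10%. With miR-155 2 and 2 did, against 12.2% and 9.83%. BCL2L12 was IP-enriched at 4.28 with the empty vector (3.87 and 4.72) and 5.11 with miR-155 (4.97 and 5.25), and PMAIP1, which encodes the BH3-only protein NOXA that targets MCL1, was at 1.94 and 2.04. BAD was at 0.549 and 0.501, BCL2L13 at 0.589 and 0.469, and BIK at 1.36 and 1.25. HRK was the third family gene with probes apart, 1.44 and 1.44 at probe A_23_P25194 and 0.446 and 0.229 at probe A_24_P52882 (0.718 and 0.451 with normexp, loess and Aquantile). The IP signal of the latter probe was 0.482-fold of EV-ST486 (0.490 and 0.474), the one signal of this list past 2-fold between the vectors. BCL2L2 (3.40 and 2.18, detected in 6 channels) and BOK (3 channels) were removed, and BCL2L10 and BCL2L14 were detected in 0 channels.

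Downstream of the family, the 19 kept probes of mitochondrial apoptosis factors and caspases, like all kept probes, lay more often below T than above it. Of the 19, 0 were at or above 2 in either vector, against 12.1% (empty vector) and 12.2% (miR-155) of all kept probes. At or below 0.5 were 2 with the empty vector and 1 with miR-155, against 10% and 9.83%. The median log2 IP/T ratio of the 19 was -0.50 with the empty vector and -0.22 with miR-155, beside -0.15 and -0.18 for all kept probes. In EV-ST486 14 of the 19 were below 1 in both orientations, against 44.7% of all kept probes, and with miR-155 12 were, against 50.6%. These 19 probes came from 13 genes, and the list was not tested. VDAC3 probe A_24_P235316, for a channel of the outer mitochondrial membrane, was at 0.474 and 0.481. Among the 4 kept probes of inhibitors of apoptosis, 1 was at or above 2 in either vector, against 12.1% and 12.2% of all kept probes. This was BIRC3, a ubiquitin ligase induced by NF-kB, at 10.7 with the empty vector (10.7 and 10.8) and 6.63 with miR-155 (7.32 and 6.01). Of the 9 measured probes of the death receptor list, 2 were at or above 2 in both vectors, against 12.1% and 12.2% of all kept probes. At or below 0.5 were 0, against 10% and 9.83%. FAS was at 12.0 (11.1 and 13.0) and 6.69 (7.77 and 5.76), and TNFRSF1A probe A_23_P139722 at 3.49 and 3.51, but with normexp these ratios were as low as 1.73 and 1.90 for FAS and 1.27 and 1.48 for TNFRSF1A. CASP8 probe A_24_P157087 was above background in the IP but not in T, where it has only a bound, and was at least 1.35-fold higher in the IP in EV-ST486 and at least 1.46-fold in miR-155-ST486. CASP10 probe A_23_P209408 was the measured probe of these lists with the lowest miR-155/EV ratio, 0.427 (0.416 and 0.438), with IP/T ratios of 1.35 and 0.575. It was detected in 6 channels, its miR-155/EV ratio was 0.923 with normexp, loess and Aquantile, and the other kept CASP10 probe was at 0.695.

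Among regulators of the family, FBXW7, the ubiquitin ligase that marks MCL1 for degradation, was IP-enriched at probe A_24_P174613, 9.32 with the empty vector (11.4 and 7.61) and 9.36 with miR-155 (9.47 and 9.24). TPT1, a partner of MCL1 and BCL2L1, was depleted at all 3 probes, between 0.298 and 0.343 with the empty vector and between 0.234 and 0.268 with miR-155. DYNLL1, a dynein light chain that binds BCL2L11, was at 0.477 and 0.397 at probe A_24_P124672 and at 0.638 and 0.495 at the other. Of the 12 measured probes in this list 6 were at or below 0.5 in each vector, against 10% (empty vector) and 9.83% (miR-155) of all kept probes. The 3 TPT1 probes, of a single gene, were among these 6. In each vector 1 probe was at or above 2, against 12.1% and 12.2%. The list was not tested.

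**Figure D4:**
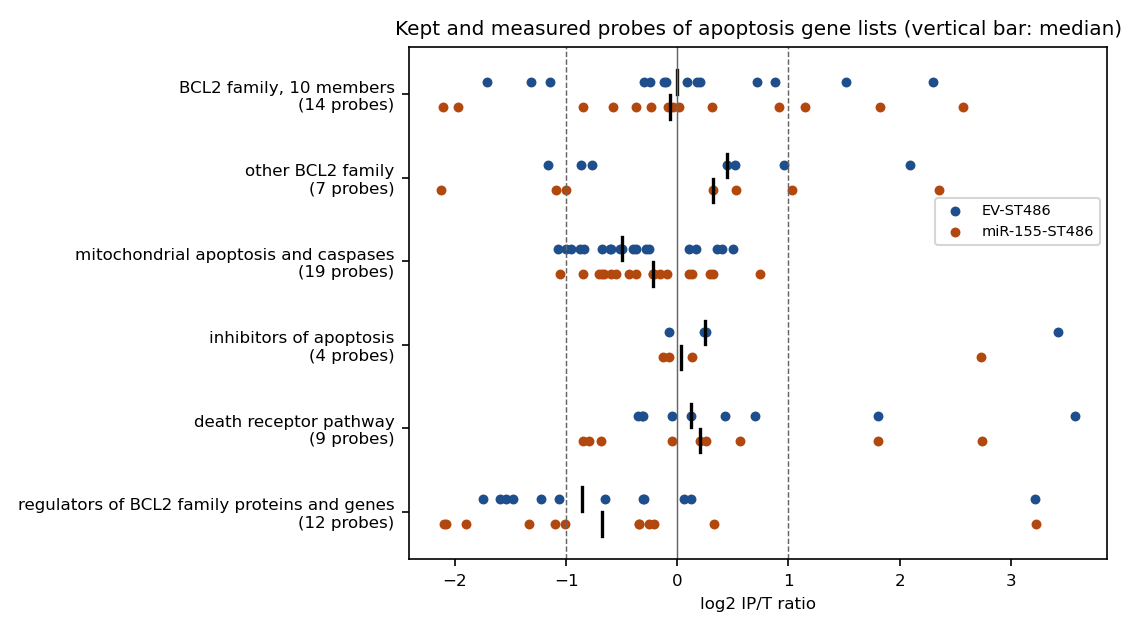
Log2 IP/T ratio (x axis) of each kept and measured probe of the 10 BCL2 family genes and of 5 lists of apoptosis genes (rows), in EV-ST486 (blue) and miR-155-ST486 (orange). Short black bars are medians, dashed lines mark 2-fold, and 2 kept probes (CASP8 A_24_P157087 and FOXO3 A_32_P102062) that have only a bound in a sample are left out. FAS, BIRC3 and FBXW7 are the points furthest right, and the members spread from -2.11 to 2.57.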

How the data were processed

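RNA of 4 samples (EV-ST486 and miR-155-ST486, total and Ago2-IP) was measured on 4 two-colour arrays with 45015 spots each, and samples were grouped by their labels. The intensity values deposited by the authors came from Agilent Feature Extraction 10.5.1.1, as the submitters' processing notes name it, which per the file headers subtracted background and equalized the dyes on each array. Each array was deposited under both channels with identical content, and the channel of the sample's own dye was used. The authors also deposited log2 values, quantile-normalized and filtered. Their column medians were 9.89 to 9.91, with no centring, and 99.9% of the values of 14453 probes lay within 0.05 of the values made here.

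Control spots were left out, replicate spots were averaged, a floor of 1 was applied, and log2 values were quantile-normalized over 8 channels. A probe counted as detected in a channel if any of its spots was well above background. The filters and ratios are those given with the results. A probe at background in all labellings of a sample has only a bound there, computed after normexp (offset 50, with 19 local backgrounds above 500 set to the median of their channel), loess and Aquantile and open to dye bias. Symbols came from a RefSeq table (23958 of 41000 probes), with no coordinates. Of 74 listed genes 71 had a probe. Named were all members, all detected genes of the other BCL2 family list, and in the other lists the probes past 2-fold in both vectors or between them, except for a gene that is not reported here. Members and lists were chosen with earlier results of these data known. Alternatives were other detection filters, no filter on labelling differences, no quantile normalization, normexp followed by loess and Aquantile or by quantile normalization, the deposited values, each dye orientation alone, and leaving out outlier spots. The number of arrays limits the precision. Normexp was run with limma 3.58.1 in R 4.3.3 and all else with pandas 2.3.3 and numpy 2.4.6 in Python 3.11.15 (figures with matplotlib 3.10.9). Scripts were tested on simulated data.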

Additional observations from a re-analysis of the deposited data

Results flagged for a closer look

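Among the members and the apoptosis lists, 3 kept probes had an IP/T ratio on one side of 1 in both dye orientations of EV-ST486 and on the other side in both orientations of miR-155-ST486. The difference was not tested, and 502 of all kept probes, or 3.23%, showed the same. The antiapoptotic BCL2A1 (A_23_P321703) had a miR-155/EV ratio of 0.844, from IP/T ratios of 1.14 and 1.16 in EV-ST486 and 0.962 and 0.981 in miR-155-ST486. The USP9X probe A_23_P217409, for a deubiquitinase that stabilizes MCL1, had a ratio of 0.831, from 1.05 and 1.03 against 0.925 and 0.809. The CYCS probe A_24_P376556, for cytochrome c, had a ratio of 1.46, from 0.971 and 0.726 against 1.49 and 1.01, while the other kept CYCS probe had a ratio of 0.999. For BCL2A1 the T signal in miR-155-ST486 was 0.889-fold and the IP signal 0.75-fold of EV-ST486. For USP9X both signals were higher, T at 1.82-fold and IP at 1.51-fold. For CYCS probe A_24_P376556 T was at 1.385-fold and IP at 2.02-fold.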

How the results depend on the processing

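Over the alternatives run, the number of member probes past 2-fold between the vectors was 0 in each, 0 ratios past 2-fold changed direction, and of the ratios of single named probes 83 of 183 moved by more than the spread between the labellings with normexp, against 16 of 543 with the alternatives that keep both dye orientations and do not use it. The probes that reached 2-fold enrichment in the EV-ST486 IP numbered 1 in place of 2 with normexp, loess and Aquantile and 1 with normexp and quantile normalization, and in miR-155-ST486 they numbered 1 in place of 3 with the latter. In both settings BCL2L11 probe A_24_P122921 was removed by the filter on labelling differences, with a ratio that stayed above 2, and in the latter BCL2 fell to 1.85 in miR-155-ST486. The probes at or below 0.5 in EV-ST486 numbered 1 in place of 3 on the arrays with T in Cy5 alone. The median log2 IP/T ratio of the members in EV-ST486 was 0.27 in place of -0.01 on those arrays. In miR-155-ST486 it was -0.06, against 0.02 with detection in all 8 channels, 0.00 without quantile normalization, 0.03 with normexp, loess and Aquantile, -0.14 with T in Cy3 alone and -0.10 with T in Cy5 alone. The median log2 miR-155/EV ratio was -0.12 in place of 0.09 with T in Cy5 alone. The cause of these shifts in medians and of the last count was not tested. With normexp, loess and Aquantile, 4.92% and 1.84% of all kept probes passed 2-fold upwards and downwards in EV-ST486, so that 72.8% of the calls were upwards in place of 54.6% (64.9% with quantile normalization), and in miR-155-ST486 78.0% in place of 55.3% (66.3%). That setting moved the median log2 IP/T ratio of all kept probes from -0.15 to -0.01 in EV-ST486 and from -0.18 to -0.01 in miR-155-ST486. For the miR-155/EV ratio, 70.8% of calls were upwards in the main setting and between 37.0% and 96.1% in the alternatives. IP and T of the same cells were paired on each array, but no paired test over replicates was possible. There is 1 RNA sample per condition and the labels carry no replicate numbers. Signals near background limit BCL2L1, BMF, several BCL2L11 probes and BBC3 probe A_24_P305312.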
